A study of Mus musculus with 9 samples.

Results

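The circadian clock genes described here are 10 genes of the molecular clock, namely Arntl, Clock, Per1, Per2, Per3, Cry1, Cry2, Nr1d1, Nr1d2 and Dbp. They were found by name among the 21809 genes of the deposited mRNA table, in which they hold 44 of the 101539 annotated transcripts. The value of a gene is the sum of the FPKM (mapped fragments scaled to the length of the transcript and the depth of the library) of its transcripts, so that levels can be compared between genes per length. All 10 genes and 35 of the 44 transcripts reached the mean of 0.1 FPKM needed for a test, and 3 transcripts were listed at 0 in every library.

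RNA came from the trigeminal ganglion (TG) of wild-type (WT) male C57BL/6 mice aged 8 weeks, kept in 12 h of light and 12 h of dark. Saline (10 µl) or complete Freund's adjuvant (CFA, 10 µl at 5 mg/ml) was injected into the temporomandibular joint (TMJ) of 1 side. Punches of the TG on 1 side were pooled from 3 mice for each library, and ribosomal RNA was removed without selection of poly-A tails. The 9 libraries form 3 groups of 3, which are saline replicates 1 to 3, CFA3D replicates 1 to 3 (day 3 after CFA) and CFA6D replicates 4 to 6 (day 6 after CFA). The labels place the saline libraries on day 3, so CFA6D had no saline group of its own day. The hour of day of the dissections is not given in the sources used here, which bears on every level of a clock gene. Beyond the pools, nothing says which libraries were processed together, and p-values measure the spread between these pools.

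The molecular clock is a feedback loop of transcription that runs in most cells of the body. ARNTL (also named BMAL1) and CLOCK bind DNA as a pair at E-boxes and activate Per, Cry, Nr1d and Dbp genes. The PER and CRY proteins then repress that pair, REV-ERB alpha and beta (from Nr1d1 and Nr1d2) repress Arntl, and DBP activates genes with D-boxes. Levels of most members therefore rise and fall over the day, with Arntl in opposite phase to Dbp and the Nr1d genes. Per1 is also known as an immediate target of cAMP signalling and of the glucocorticoid receptor.

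Of the 10 members, 3 passed the test on CFA6D and 0 on CFA3D, against 11.1% and 4.45% of all gene sums. On CFA6D, Per1 was upregulated 2.15-fold, Cry2 was upregulated 1.29-fold and Clock was downregulated to 0.719 of saline. The test was limma on log2(FPKM + 0.1) of all 16096 gene sums with an unadjusted p under 0.05, the cutoff in the methods of the study. No member had a Benjamini-Hochberg adjusted p under 0.05 in any comparison. The CFA6D libraries also listed Per1 mainly as another annotated transcript than the saline libraries did, and the sequence that tells these transcripts apart is given first.

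The annotation (GENCODE M21, GRCm38) holds 6 Per1 transcripts at chr11:69095217-69109960 on the plus strand. Per1-201 and Per1-203 code for nearly the same protein, with coding lengths of 3873 and 3813 bases. All 4537 bases of Per1-203 lie within the exons of Per1-201, and Per1-203 has no base that no other Per1 transcript holds. Per1-201 has 134 bases more. Of these, 60 are coding and open the exon at chr11:69101675-69101876, and the other 74 are noncoding and lie at the 5′ end of the transcript. The 60 bases make 20 codons and end in AG, and 4 of the 6 transcripts hold them. The exon is shown 5′ to 3′ with the bases that Per1-203 lacks in capitals.
Per1-201 exon: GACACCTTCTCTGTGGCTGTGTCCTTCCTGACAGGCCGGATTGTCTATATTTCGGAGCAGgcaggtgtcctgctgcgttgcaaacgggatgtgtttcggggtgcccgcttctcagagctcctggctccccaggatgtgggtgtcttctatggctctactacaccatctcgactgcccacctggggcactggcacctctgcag

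**Figure D1:**
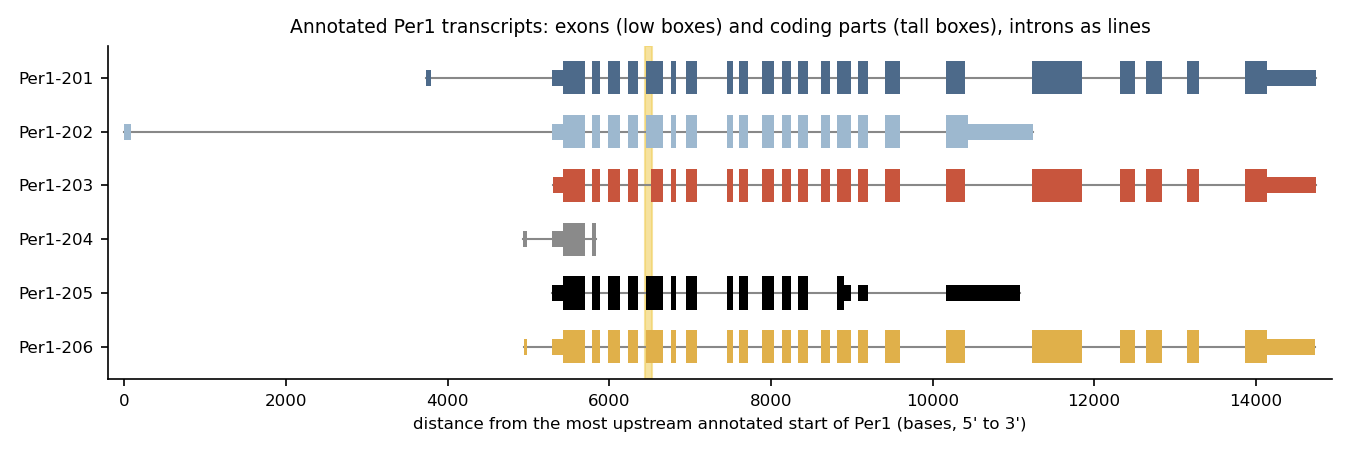
Exon map of the 6 annotated Per1 transcripts, with the distance in bases from the most upstream start on the horizontal axis. Low boxes are exons, tall boxes their coding parts and lines introns, and the yellow band marks the 60 bases that Per1-203 lacks. Per1-202 starts farthest upstream and ends before the last exons, and Per1-203 differs from Per1-201 only in its start and at the yellow band.

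Promoter windows of RefSeq (GRCm38.p6, 250 bases before to 50 after a start) were found for 9 of the 10 members, with none for Per2, and came to 13 windows. The E-box CACGTG stood in windows of Per1 and Cry1, against 7.15% of all 32851 windows. The D-box TTATGTAA or its reverse complement TTACATAA stood only in the window of Per3, among the 13, against 0.938% of all windows. TAGGTCA, or TGACCTA, the core of the REV-ERB element, stood in a window of Arntl and in 2.61% of all windows. TGACGTCA, the full cAMP response element, was in none of the 13 windows and in 1.79% of all. Both strands were searched, and a match or its lack says nothing about binding. The 250 bases before a start are shown for Per1, the member with the largest change, and for Per3, whose level moved closely with that of Dbp, with the E-box (first base at -166) and both D-boxes (first bases at -205 and -158) in capitals. The first is chr11:69098699-69098948 on the plus strand and the second chr4:151044666-151044915 on the minus strand. The Per1 bases end at the annotated start of Per1-201, and Per1-203 starts downstream of them at chr11:69100522.
Per1 upstream: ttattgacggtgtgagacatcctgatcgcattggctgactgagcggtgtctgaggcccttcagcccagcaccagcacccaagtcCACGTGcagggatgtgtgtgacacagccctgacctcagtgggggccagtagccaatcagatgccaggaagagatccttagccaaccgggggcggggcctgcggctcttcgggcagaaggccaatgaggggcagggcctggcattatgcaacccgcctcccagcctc
Per3 upstream: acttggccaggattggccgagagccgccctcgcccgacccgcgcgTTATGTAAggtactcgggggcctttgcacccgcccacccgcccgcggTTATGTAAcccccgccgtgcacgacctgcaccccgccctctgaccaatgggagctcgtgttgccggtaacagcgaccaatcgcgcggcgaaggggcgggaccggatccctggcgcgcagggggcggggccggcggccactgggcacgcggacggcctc

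All members were detected in every library. Averaged over the 9 libraries, Cry2 was the highest member at 25.5 FPKM, followed by Nr1d2 at 23.6, Dbp at 17.3, Per1 at 16.1, Per3 at 15.8, Nr1d1 at 15.7, Clock at 9.40, Per2 at 7.13, Cry1 at 3.91 and Arntl at 1.60 FPKM. Among neighbours in this order, the higher gene was higher in all 9 libraries for Nr1d2 over Dbp, Nr1d1 over Clock, Per2 over Cry1 and Cry1 over Arntl. Cry2 over Nr1d2 (6 of 9 libraries), Dbp over Per1 (6 of 9), Per1 over Per3 (3 of 9), Per3 over Nr1d1 (5 of 9) and Clock over Per2 (7 of 9) changed order between libraries. The sums include retained-intron transcripts, so the order of coding transcripts can differ. Nr1d2-201 averaged 13.8 FPKM and Dbp-201 12.9 FPKM, and Dbp-201 was the higher in saline replicates 1 and 2 and CFA3D replicate 2. Per1 varied most, with 4.03 times as much in the highest library as in the lowest. Cry2 varied least, with 1.47 times.

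Depth was read from the step between low FPKM values, which gave 30.0 to 42.2 M read pairs per library, with 1 read pair in 1 kb worth 0.0237 to 0.0333 FPKM. On that scale a member rested on 102 (Arntl) to 4290 (Per1) approximate reads in a library. Sensory neuron markers (8 of 8 detected) summed to 812 to 1204 FPKM per library, and Schwann and satellite glia markers (8 of 8) to 2987 to 3731 FPKM. Saline replicate 3 and CFA6D replicate 6 lay farthest out on the first 2 principal components, and saline replicate 2 came next. Saline replicate 3 carried 10626 FPKM of pituitary markers, against 8.93 to 1115 FPKM in the other libraries, and CFA6D replicate 6 carried 2600 FPKM of marrow granulocyte markers, against 23.2 to 131 FPKM. Saline replicate 2 carried 133 FPKM of adipocyte markers (6.01 to 11.5 FPKM elsewhere), 136 FPKM of skeletal muscle markers (at most 60.3 FPKM, in CFA6D replicate 6) and 5789 FPKM of erythroid markers (at most 3862 FPKM). Results are given below with and without saline replicate 3 and CFA6D replicate 6 where they rest on them. Without saline replicate 2 the CFA6D differences were 1.13 for Per1, 0.32 for Cry2 and -0.61 for Clock, and all 3 passed. In bulk tissue, fewer cells of a type and less RNA per cell cannot be told apart.

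**Figure D2:**
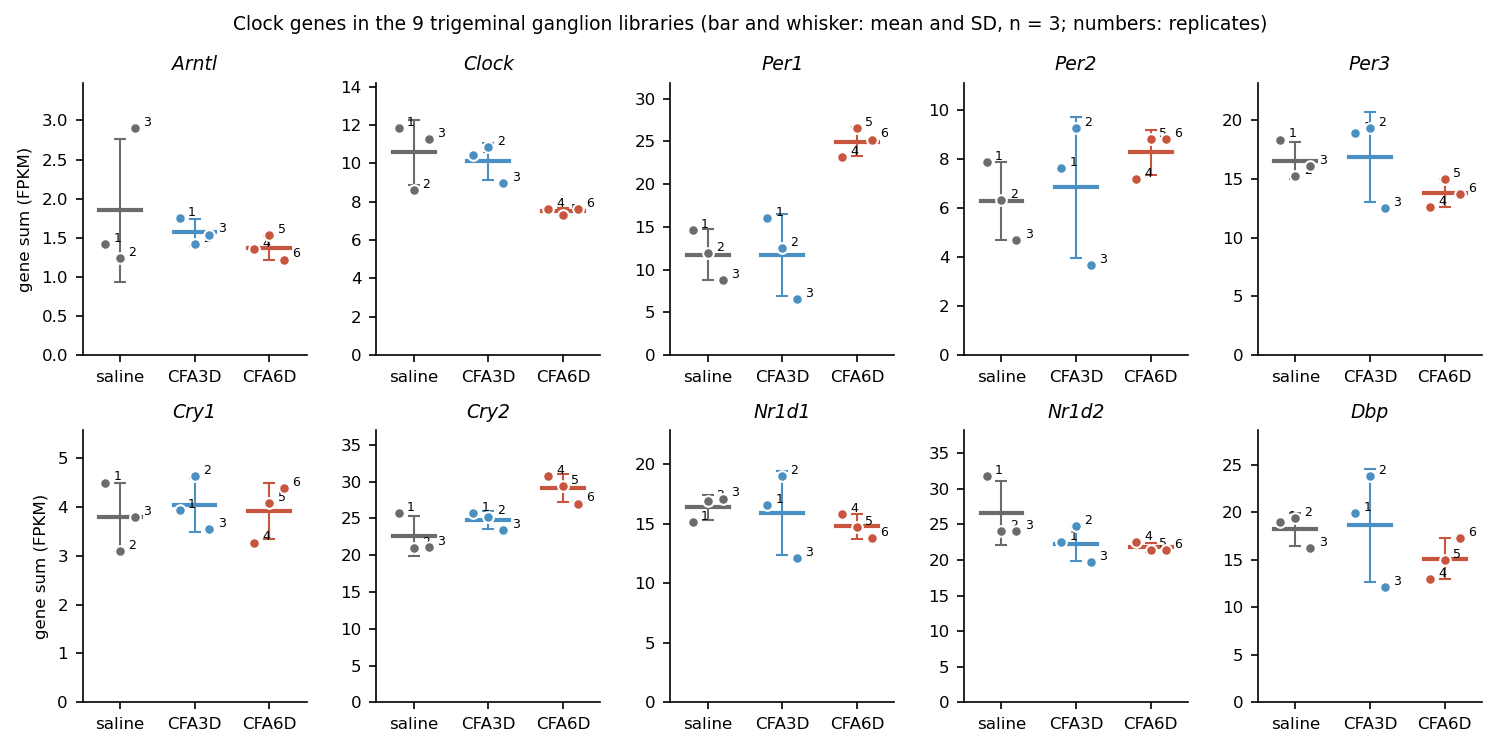
Gene sums in FPKM of the 10 members in each library, by group. Points are libraries with their replicate numbers, and bars and whiskers are the mean and SD (n = 3). The 3 CFA6D libraries lie above all others for Per1 and below all others for Clock, and CFA3D replicate 3 is the lowest CFA3D library for 9 of the 10 genes.

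The activators Arntl and Clock were examined first. Clock encodes the partner of ARNTL that carries the histone acetyltransferase activity of the pair. It was at 11.8, 8.63 and 11.3 FPKM in saline replicates 1, 2 and 3, at 10.5, 10.9 and 8.99 FPKM on CFA3D and at 7.60, 7.30 and 7.63 FPKM in the CFA6D libraries. Every CFA6D library was below every other library, and the CFA6D libraries lay closer together than those of the other groups. Clock was downregulated on CFA6D by a log2 difference of -0.48 (SE 0.13, adjusted p = 0.208 in limma, lower in 3 of 3 libraries). Of all gene sums, 8.22% were higher and 2.85% lower on CFA6D, beside 2 and 1 of the 10 members. The CFA6D and saline libraries did not overlap for 5 members, 2 higher and 3 lower, against 10.7% of all gene sums without overlap in the higher and 5.5% in the lower direction. On CFA3D the Clock difference was -0.06 (SE 0.13) with overlapping groups. The highest Clock transcript on average, Clock-201, differed by -0.38 on CFA6D and did not pass (adjusted p = 0.822 in limma), so that the call rests on the sum of the 6 transcripts. Without both saline replicate 3 and CFA6D replicate 6 the Clock difference was -0.43 and still passed.

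Arntl, the other activator and the lowest member, was at 1.42, 1.24 and 2.90 FPKM in saline, 1.75, 1.42 and 1.54 on CFA3D and 1.35, 1.53 and 1.22 FPKM on CFA6D. The level in saline replicate 3, the library with the pituitary markers, was the highest of all, and the other 8 libraries lay between 1.22 and 1.75 FPKM. The difference on CFA6D was -0.32 (SE 0.28) with all libraries and 0.04 without saline replicate 3. On CFA3D it was -0.13 with all libraries and 0.23 without that replicate. The gene shares 33 exon bases with Gm45355 on the other strand. Libraries were strand-specific, but whether strand was used in counting is not given in the sources used here.

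Among the repressors, Per1 had the largest change. It was at 14.6, 11.9 and 8.76 FPKM in saline replicates 1 to 3 and at 16.1, 12.5 and 6.57 FPKM on CFA3D. On CFA6D it was at 23.2, 26.5 and 25.2 FPKM. All CFA6D libraries exceeded all other libraries, while saline and CFA3D overlapped fully. The group means were 11.8 ± 2.94 in saline, 11.7 ± 4.80 on CFA3D and 25.0 ± 1.70 FPKM on CFA6D (SD, n = 3). The log2 difference on CFA6D was 1.11 (SE 0.29, 95% interval 0.45 to 1.77, adjusted p = 0.201 in limma, higher in 3 of 3 libraries). Without both saline replicate 3 and CFA6D replicate 6 it was 0.90 and still passed. On CFA3D it was -0.07 (SE 0.29).

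Per2, the close relative of Per1 that also encodes a period protein, was at 7.87, 6.33 and 4.68 FPKM in saline, 7.63, 9.25 and 3.67 on CFA3D and 7.18, 8.80 and 8.81 FPKM on CFA6D. Its groups overlapped, and the CFA6D difference of 0.41 (SE 0.31) did not pass. Per1 therefore also stood apart relative to Per2. The ratio of Per1 to Per2 lay between 1.35 and 2.11 in the 6 saline and CFA3D libraries and between 2.86 and 3.22 on CFA6D.

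Per3, the period gene least needed for the rhythm itself, was at 18.4, 15.3 and 16.1 FPKM in saline, 18.9, 19.3 and 12.5 on CFA3D and 12.6, 15.0 and 13.7 FPKM on CFA6D. The CFA6D libraries were all below the saline libraries, yet the difference of -0.26 (SE 0.16) did not pass. It passed without CFA3D replicate 3, which enters the shared estimate of the spread. The ratio of Per1 to Per3 was at most 0.849 in saline and CFA3D libraries and at least 1.77 on CFA6D.

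The cryptochromes are the stronger repressors of the ARNTL and CLOCK pair. Cry2 was at 25.8, 21.0 and 21.1 FPKM in saline, 25.7, 25.3 and 23.4 on CFA3D and 30.8, 29.4 and 27.0 FPKM on CFA6D. The CFA6D libraries were above all others, and saline replicate 1 was as high as the CFA3D libraries. Cry2 was upregulated on CFA6D by 0.37 (SE 0.10, 95% interval 0.15 to 0.58, adjusted p = 0.201 in limma, higher in 3 of 3 libraries) and differed by 0.14 (SE 0.10) on CFA3D. Without both saline replicate 3 and CFA6D replicate 6 the CFA6D difference was 0.37 and passed. Its highest transcript, Cry2-201, was at 14.0, 13.4 and 13.8 FPKM in the saline libraries and at 19.7, 19.2 and 17.5 FPKM in the CFA6D libraries, with a difference of 0.45 (adjusted p = 0.414 in limma). Cry2 shares 295 exon bases with D930015M05Rik on the other strand, which itself held 1.91 FPKM on average. Cry1, the other cryptochrome, lay between 3.10 and 4.63 FPKM in all libraries, and its differences were 0.10 (SE 0.17) on CFA3D and 0.05 (SE 0.17) on CFA6D.

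Nr1d1 and Nr1d2 encode the REV-ERB receptors, which bind haem and silence Arntl. Nr1d2 was at 31.8, 24.0 and 24.0 FPKM in saline, 22.5, 24.7 and 19.7 on CFA3D and 22.5, 21.5 and 21.3 FPKM on CFA6D. The CFA6D libraries were all below saline, with a difference of -0.28 (SE 0.12, 95% interval -0.55 to 0.0023), just short of the cutoff, and CFA3D overlapped with saline at -0.25 (SE 0.12, 95% interval -0.53 to 0.031). Much of the Nr1d2 sum was Nr1d2-202, a transcript with a retained intron, at 15.2, 9.61 and 8.43 FPKM in saline, 4.71, 4.85 and 2.87 on CFA3D and 10.4, 4.35 and 4.56 FPKM on CFA6D. The retained-intron transcript was downregulated on CFA3D by -1.39 (adjusted p = 0.989 in limma), while the coding transcript Nr1d2-201 was at 12.6 to 13.6 FPKM in saline and 14.5 to 17.0 FPKM on CFA3D, a difference of 0.23 in the other direction that did not pass. Thus the sum and the coding transcript of Nr1d2 pointed in opposite directions on CFA3D.

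Nr1d1 was at 15.2, 16.9 and 17.1 FPKM in saline, 16.6, 19.0 and 12.1 on CFA3D and 15.9, 14.8 and 13.8 FPKM on CFA6D. The groups overlapped, with differences of -0.07 (SE 0.15) and -0.15 (SE 0.15). Nr1d1 shares 263 exon bases with Thra on the other strand, a gene at 32.6 FPKM, so reads of the overlap are uncertain.

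Dbp, a PAR bZIP transcription factor and the classical output gene of the clock, was at 19.0, 19.4 and 16.2 FPKM in saline, 19.9, 23.9 and 12.2 on CFA3D and 13.0, 15.0 and 17.3 FPKM on CFA6D. CFA3D held both the highest and the lowest library, and no comparison passed, with differences of -0.02 (SE 0.22) on CFA3D and -0.27 (SE 0.22) on CFA6D. Dbp shares 539 exon bases with Sphk2 on the other strand, which was at 5.53 FPKM.

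A direct comparison of the days, CFA6D minus CFA3D, tests whether levels differ between CFA6D and CFA3D. The saline libraries enter it only through the shared estimate of the spread. All saline libraries are of day 3, so a difference in the effect of CFA cannot be told apart from the day. Per1 was higher on CFA6D by 1.18 (adjusted p = 0.577), Cry2 higher by 0.23 (adjusted p = 0.668) and Clock lower, with a difference of -0.42 (adjusted p = 0.616 in limma). These 3 of 10 members stand against 7.39% of all gene sums. Cry2 kept no p under 0.05 in this comparison when CFA3D replicate 1, 2 or 3 or CFA6D replicate 4 or 5 was left out (0.19 to 0.26). Without CFA3D replicate 3, Per3 (-0.47), Dbp (-0.54) and Nr1d1 (-0.26) passed as lower on CFA6D and Cry2 did not, which made 5 members. The 2 comparisons with saline share the saline libraries and are not independent of each other.

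**Figure D3:**
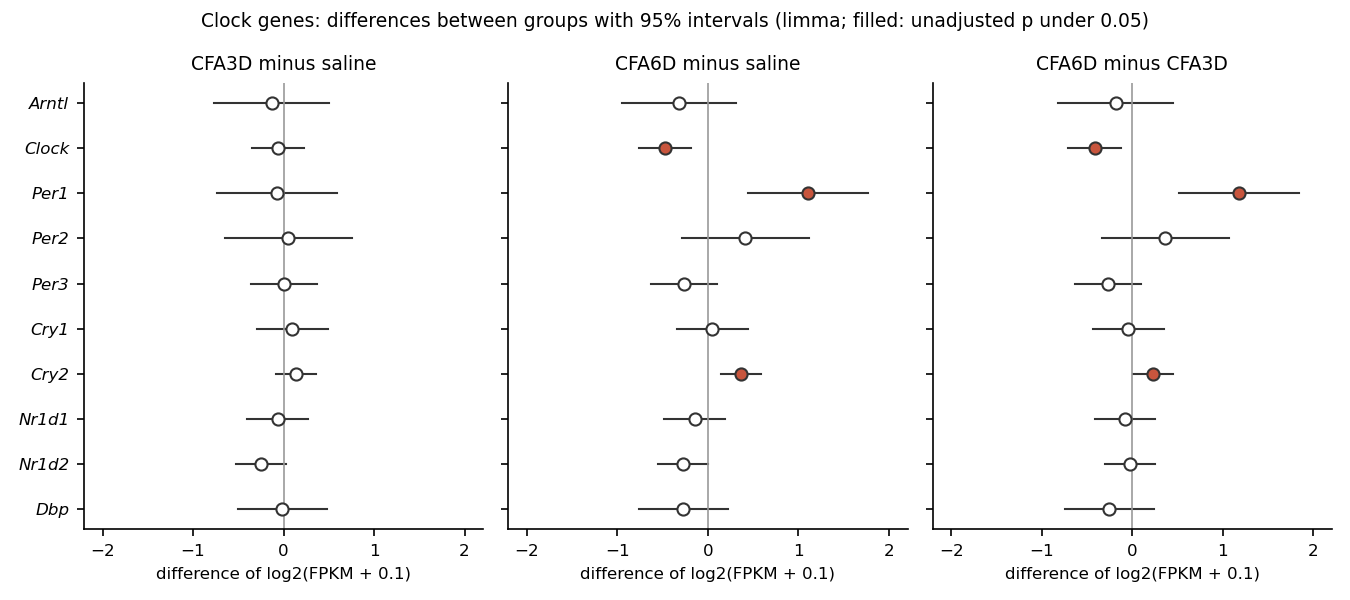
Differences of log2(FPKM + 0.1) between groups for the 10 members, with 95% intervals from limma, in the 3 comparisons. Filled points had an unadjusted p under 0.05, which none has for CFA3D minus saline and Per1, Cry2 and Clock have in both comparisons of CFA6D.

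CFA3D replicate 3 was low for most members. It held the lowest level of all 9 libraries for 6 of the 10 members, against 11.1% of all gene sums, and the lowest CFA3D level for 9 of 10, against 42%. CFA3D replicate 2 held the highest CFA3D level for 7, against 49.5%. Of the marker lists in CFA3D replicate 3, summed granulocyte markers (23.2 FPKM) and erythroid markers (1667 FPKM) were also the lowest of all libraries. Its summed sensory neuron markers (1204 FPKM) were the highest of all libraries, and the remaining marker lists lay in between. Among the members, the exception to the low CFA3D levels was Arntl, at 1.54 FPKM in CFA3D replicate 3 and 1.42 FPKM in CFA3D replicate 2. CFA3D replicate 3 had 36.1 M read pairs, within the range of the other libraries. The hour of dissection of these pools is not known here, and its part in this spread was not tested.

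The transcripts of Per1 differed between libraries more than the sum did. Per1-201 was at 10.5, 8.75 and 4.28 FPKM in saline, 6.63, 0.986 and 0.538 on CFA3D and 1.85, 1.96 and 0.958 FPKM on CFA6D. Per1-203 stood at 0 in saline replicates 1, 2 and 3 and CFA3D replicate 1, at 8.89 and 4.80 FPKM in CFA3D replicates 2 and 3 and at 16.8, 18.5 and 20.9 FPKM on CFA6D. Where Per1-203 was listed above 0 it took 69.9% to 82.9% of the Per1 sum, and where it was at 0, Per1-201 took 41.2% to 73.5%. Libraries without Per1-203 were mixed. Per1-202 took 46.2% in CFA3D replicate 1, more than Per1-201 there, and 38.6% in saline replicate 3. By whether Per1-203 was listed, the libraries fell into 2 kinds, with a split that ran through CFA3D rather than between the groups. In limma Per1-203 passed on CFA3D (adjusted p = 0.989) and CFA6D (adjusted p = 0.291), with no fold given against a group listed at 0. Per1-201 was downregulated by -2.15 on CFA3D and by -2.20 on CFA6D (SE 0.79 for both, adjusted p = 0.989 and 0.663 in limma). Its CFA3D call was lost without saline replicate 1 or 2 or CFA3D replicate 2 or 3 (-1.46 to -2.03), and its CFA6D call without saline replicate 1 or 2 or CFA6D replicate 6 (-1.89 to -2.07). The CFA3D call of Per1-203 was lost without CFA3D replicate 2 or 3.

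Per1-202, which has its own first exon and a shorter coding part of 2481 bases, was at 3.97, 3.04 and 3.38 FPKM in saline, 7.44, 2.47 and 1.05 on CFA3D and 4.29, 5.77 and 2.97 FPKM on CFA6D, with overlapping groups. Per1-206, which codes for as many bases as Per1-201 from another first exon, was at 0.845 FPKM in saline replicate 3 and 1.78 FPKM in CFA3D replicate 1 and listed at 0 elsewhere. Per1-204, a short fragment, lay between 0.0610 and 0.250 FPKM, and Per1-205, a substrate of nonsense-mediated decay, was listed in CFA3D replicate 3 at 0.121 and CFA6D replicate 6 at 0.152 FPKM only.

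Because Per1-203 has no base of its own, a transcript estimate can place it only by reads across its exon junction or by missing coverage of the 134 bases, and the deposited values do not show either. The summed level of the 3 transcripts that share the last exons (Per1-201, Per1-203 and Per1-206) does not depend on the split between Per1-201 and Per1-203. It was 8.13 ± 2.74 FPKM in saline, 7.87 ± 2.31 on CFA3D and 20.3 ± 1.59 on CFA6D (SD, n = 3). The transcripts that hold the 60 bases apart from the rare Per1-205 (Per1-201, Per1-202 and Per1-206) gave a sum that does depend on it, of 11.6 ± 2.99 FPKM in saline, 6.96 ± 7.75 on CFA3D and 5.93 ± 1.91 FPKM on CFA6D. Thus the higher level of Per1 on CFA6D stood in the summed full-length transcripts, and whether its reads held the 60 bases cannot be read from these values.

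**Figure D4:**
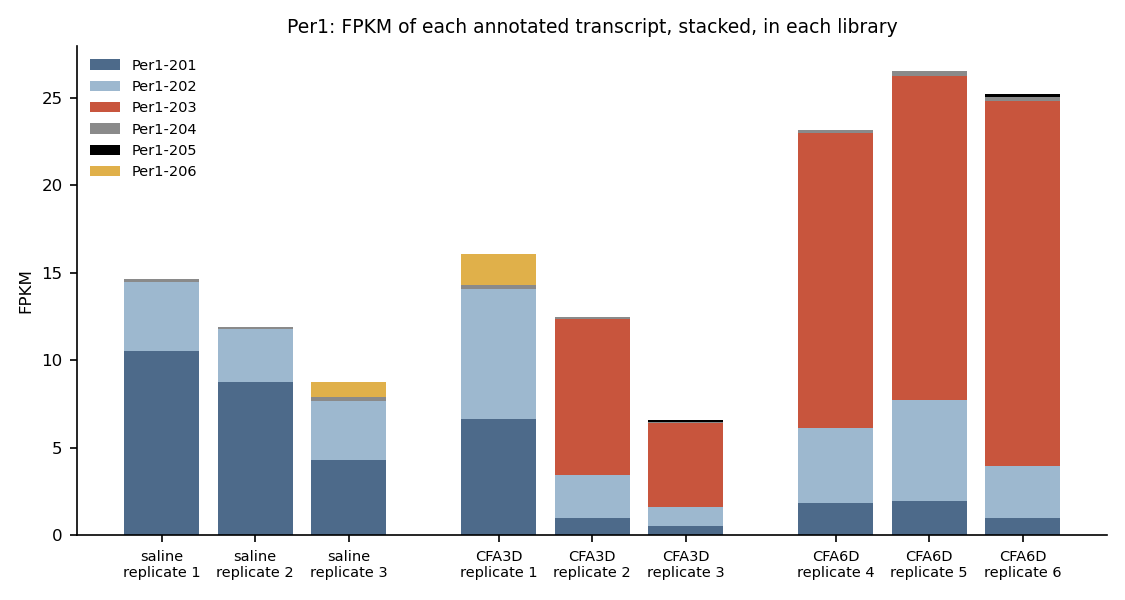
FPKM of each annotated Per1 transcript, stacked, in each of the 9 libraries, in colours by transcript. Per1-203 makes up most of the bar in CFA3D replicates 2 and 3 and on CFA6D and is at 0 in the other 4 libraries, whereas the height of the bar rises only on CFA6D.

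Over all members, 3 transcripts passed on CFA3D and 4 on CFA6D, out of 35 tested, against 4.68% and 6.81% of all 66562 transcripts. Those on CFA3D were Per1-201, Per1-203 and Nr1d2-202. On CFA6D they were Per1-201, Per1-203, Cry2-201 and Cry2-204, the last a noncoding transcript at 0.480, 0.471 and 0.249 FPKM in the saline libraries and at 0.609, 0.824 and 0.695 FPKM in the CFA6D libraries (0.72, adjusted p = 0.680 in limma). The call of Cry2-204 was lost without saline replicate 3 (0.48) or CFA6D replicate 5 or 6. Between the days, 4 of 35 passed against 5.42%, which were Per1-203, Cry2-201 (0.37), Per3-205 (-0.54) and Clock-203 (-0.44), the last 2 being retained-intron transcripts.

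The members were then compared with each other over libraries. Of the 45 pairs, 8 had an exact permutation p under 0.05 for Pearson's r over the 9 libraries and 0 an adjusted p under 0.05. Per3 and Dbp were the closest pair, with r = 0.868 (exact permutation p = 0.00314, adjusted p = 0.129) and Spearman's rho = 0.883 (exact p = 0.00307, adjusted p = 0.101). Without CFA3D replicates 1 and 2, the libraries farthest from the median of Per3, r was 0.777, and within groups it was 0.839. That within-group value is not particular to this pair. Within groups, r was positive for 40 of the 45 pairs and over 0.5 for 26. It was higher than for Per3 and Dbp in other pairs, such as Per2 and Dbp (0.936) and Per1 and Per2 (0.911).

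The level of Per1 set the CFA6D libraries apart, so its pairs were read over the 6 saline and CFA3D libraries. Over these, r was 0.904 with Per2, 0.876 with Per3 and 0.832 with Dbp (exact permutation p = 0.0167, 0.0250 and 0.0292, adjusted p = 0.0875 over 9 pairs), and rho was 0.771, 0.771 and 0.714 (exact p = 0.103, 0.103 and 0.136). Without saline replicate 3 and CFA3D replicate 3, r was 0.155, 0.572 and -0.376, so these relations rest on that pair of low libraries. The lowest r with Per1 over the 6 libraries was that of Arntl, at -0.31 (exact permutation p = 0.561).

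Among 13174 gene sums that averaged 1 FPKM or more, those most like Per1 over the 9 libraries by Pearson's r were Sgk1 (r = 0.981), Hif3a (0.967), Bcl6 (0.964), Nfkbia (0.960) and Mef2d (0.956). In each of these 5 genes the CFA6D libraries were all above the other 6, which choosing them by their likeness to Per1 nearly fixes. Sgk1 ran from 17.2 to 34.4 FPKM in the saline and CFA3D libraries and from 49.6 to 67.2 FPKM on CFA6D. Those most like Dbp were Ccl8 (0.964), Tdp1 (0.955), Mcpt4 (0.954), Usb1 (0.953) and Cpz (0.951). Ccl8, a chemokine, was at 4.80 FPKM in CFA3D replicate 2 and 0.250 FPKM in CFA3D replicate 3, and Mcpt4, a protease of connective tissue mast cells, at 9.15 and 1.56 FPKM in the same libraries.

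The rest of the pathway was taken from a list of 19 genes, all of which were tested. On CFA6D, 3 were higher (Csnk1d, Usp2 and Wee1), 0 were lower and 16 did not pass, against 8.22% higher and 2.85% lower among all gene sums, and the median difference of the list was 0.12, against 0.03 for all gene sums. On CFA3D, 3 were higher (Timeless, Bhlhe41 and Csnk1d), 0 were lower and 16 did not pass, against 4.45% of all gene sums past the cutoff, with a median of 0.063 for the list and 0.05 for all gene sums. Between the days, 2 were higher (Csnk1d and Usp2) and 1 was lower (Timeless) on CFA6D, against 7.39% of all gene sums. The call of Timeless between the days was lost without CFA3D replicate 2 or 3 or CFA6D replicate 5 or 6 (-0.29 to -0.42).

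Csnk1d, the kinase casein kinase 1 delta that marks PER proteins for turnover, was at 38.0, 33.5 and 34.1 FPKM in saline, 39.6, 40.4 and 39.4 on CFA3D and 48.5, 46.7 and 45.4 FPKM on CFA6D. Its 3 groups did not overlap, and it was higher by 0.18 on CFA3D (SE 0.07) and 0.41 on CFA6D (SE 0.07, adjusted p = 0.103 in limma), the smallest adjusted p among the clock genes examined. Csnk1e, its close relative, ran from 18.7 to 22.3 FPKM over all libraries and passed in no comparison. On CFA3D, Csnk1d passed in 8 of 18 settings tried on its sum, with differences from 0.093 to 0.23.

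Usp2, a deubiquitinase under clock control, was at 5.60, 4.50 and 5.45 FPKM in saline, 4.96, 5.37 and 3.75 on CFA3D and 6.27, 8.48 and 7.65 FPKM on CFA6D, a difference of 0.51 from saline that was lost without CFA6D replicate 5 (0.42). Wee1, a cell cycle kinase with E-boxes under clock control, was at 3.47, 2.45 and 2.21 FPKM in the saline libraries and at 4.10, 4.60 and 4.47 FPKM in the CFA6D libraries (a difference of 0.70), with 0.57 and no longer past the cutoff without saline replicate 3. Timeless rose by 0.51 on CFA3D, from 3.21 to 4.37 FPKM in saline to 5.28 to 6.23 FPKM, and Bhlhe41, a repressor also named DEC2, by 0.32, a call lost without saline replicate 2 (0.21) or CFA3D replicate 2 (0.27). None of these had an adjusted p under 0.05 in limma.

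**Figure D5:**
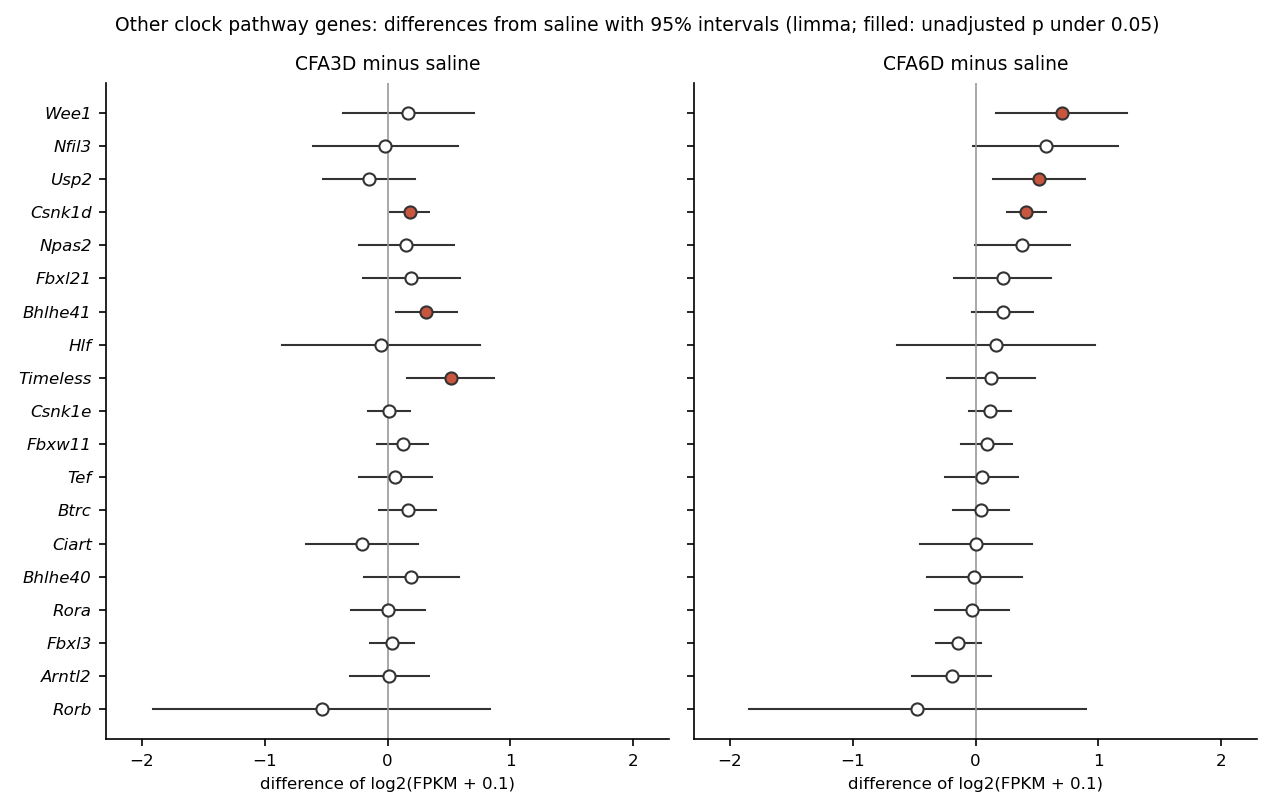
Differences of log2(FPKM + 0.1) from saline for 19 other genes of the clock pathway, ordered by their difference on CFA6D, with 95% intervals from limma. Filled points had an unadjusted p under 0.05. Csnk1d is filled on both days, Wee1 and Usp2 on CFA6D, and Timeless and Bhlhe41 on CFA3D.

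Per1 belongs to genes that glucocorticoids and acute stimuli induce, so 2 lists of such genes were read beside it. Both lists were chosen with earlier results of these data known, so their counts and medians are only a description. Of 12 glucocorticoid-induced genes, 7 were higher on CFA6D and 0 lower, and on CFA3D 0 passed. Of all gene sums, 8.22% were higher and 2.85% lower on CFA6D, and 4.45% passed on CFA3D. The list had a median difference of 0.65 on CFA6D and 0.07 on CFA3D, against 0.03 and 0.05 for all gene sums. Ddit4, an inhibitor of mTOR signalling, was the largest at 1.66 (adjusted p = 0.0729 in limma), with 16.9 to 26.3 FPKM in saline, 16.4 to 27.2 on CFA3D and 63.0 to 79.1 FPKM on CFA6D. Sgk1 (1.22), Pdk4 (0.86), Errfi1 (0.78), Tsc22d3 (0.73), Dusp1 (0.58) and Klf9 (0.53) also passed. Without saline replicate 3, Tsc22d3 (0.40), Pdk4 (0.55) and Klf9 (0.39) no longer passed, and none of these 3 passed without CFA6D replicate 5 (0.64, 0.69 and 0.43). Without saline replicate 2, Tsc22d3 (0.80) and Klf9 (0.50) did not pass, and Tsc22d3 was also lost without CFA3D replicate 1 or CFA6D replicate 4. Fkbp5, Zbtb16, Cdkn1a, Mt1 and Mt2 did not pass on CFA6D with all libraries. Of 10 immediate early genes, 4 were higher on CFA6D (Egr2 1.27, Nr4a1 0.99, Egr1 0.84 and Junb 0.42) and 0 on CFA3D, beside the same shares of all gene sums. Their list medians were 0.47 and 0.05. Egr2 was lost without saline replicate 1 (0.79) or 3, CFA3D replicate 2 or any CFA6D library, and Junb without saline replicate 1 or 2, CFA3D replicate 3 or CFA6D replicate 4 or 6 (0.29 to 0.46). Between the days, 3 glucocorticoid-induced genes (Ddit4, Sgk1 and Pdk4) and 4 immediate early genes (Egr2, Nr4a1, Npas4 and Btg2) were higher on CFA6D. In that comparison 7.39% of all gene sums passed in either direction. The calls of Npas4 and Btg2 were each lost without any of 4 single libraries (0.93 to 1.12 and 0.57 to 0.71). The part of these genes in the level of Per1 was not tested.

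Of the 8 sensory neuron markers, 2 were higher on CFA6D (Nefh by 0.34 and Pou4f1 by 0.56) and 2 on CFA3D. Of the 8 glial markers, 0 passed against saline on either day. Among all gene sums, 8.22% were higher and 2.85% lower on CFA6D, and 4.45% passed on CFA3D. The summed neuronal markers ranged from 812 to 1059 FPKM in saline, 1041 to 1204 on CFA3D and 1007 to 1188 on CFA6D. The 6 marrow granulocyte markers summed to 46.8 to 115 FPKM in saline, 23.2 to 69.9 on CFA3D and 118 to 2600 FPKM on CFA6D. On CFA6D, 1 of 6 passed the test against saline and 6 of 6 against CFA3D, where 7.39% of all gene sums passed. Pituitary markers summed to 8.93 to 10626 FPKM in saline, 14.2 to 20.7 on CFA3D and 43.1 to 1115 FPKM on CFA6D, and 0 of 6 passed in any comparison. Yet 4 of 6 did not overlap and were higher on CFA6D than on CFA3D, as were 1065 of all 16096 gene sums. Skeletal muscle markers ran from 4.09 to 136 FPKM in saline, 1.57 to 8.16 on CFA3D and 1.11 to 60.3 FPKM on CFA6D, and adipocyte markers from 8.47 to 133, 6.01 to 7.43 and 6.78 to 11.5 FPKM. The median differences from saline were -2.64 and -2.81 for these 2 lists on CFA3D, with 0 of 5 and 1 of 5 markers past the cutoff. The part of these markers in the clock differences was not tested. The differences of Per1, Cry2 and Clock without CFA6D replicate 6 were 1.10, 0.42 and -0.49.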

How the data were processed

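Total RNA of 9 TG libraries was analysed. Per the study's methods, the authors trimmed reads with Trimmomatic, mapped them to GRCm38 and used CLC Genomics Workbench, while the submitters' processing notes name Bowtie 0.12.2 and mm8. The authors deposited FPKM per transcript, and how FPKM were made is not given in the sources used here. Transcripts were joined by identifier to GENCODE M21 (101539 of 102122 matched) and summed by gene name, and all per-sample columns were used. Features averaging 0.1 FPKM or more entered limma 3.58.1 (R 4.3.3) as log2(FPKM + 0.1), in 1 model of the 3 groups with a trend in the variance and Benjamini-Hochberg adjustment over all features. A fold change on this scale understates changes of low transcripts. A call was an unadjusted p under 0.05. The script was tested on simulated data. With 3 libraries against 3, an exact permutation p cannot go below 0.1, so none is given for group differences. Pearson's r was tested with all pairings of libraries.

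The members and gene lists were chosen with earlier results of these data known, and 1 pathway gene is not reported here. Named were all members, every Per1 transcript, the highest transcript and each called transcript of the others, listed genes with a p under 0.05, and the 5 genes most like Per1 and Dbp. Saline and CFA3D share replicate numbers, which showed no pairing of the libraries and were not used in the main fit. Alternatives covered pseudocount, filter, quantile normalization, fits of 2 groups, single transcripts, the block and leaving out libraries. Python 3.11.15, numpy 2.4.6, pandas 2.3.3, scipy 1.17.1 and matplotlib 3.10.9 were used.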

Additional observations from a re-analysis of the deposited data

Results flagged for a closer look

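Levels differed between CFA6D and CFA3D by a direct test for 3 members and 4 of their transcripts, against 7.39% of all gene sums and 5.42% of all transcripts. Each passed at an unadjusted p under 0.05 in limma and none at an adjusted one. Without saline libraries of day 6, a difference in the effect of CFA cannot be told apart from the day. For gene sums the log2 differences were 1.18 for Per1, 0.23 for Cry2 and -0.42 for Clock. For transcripts they were 3.52 for Per1-203, 0.37 for Cry2-201, -0.54 for Per3-205 and -0.44 for Clock-203. CFA3D replicate 1 listed Per1-203 at 0, so the size of its difference depends on the pseudocount, with 4.63, which did not pass, at a pseudocount of 0.01. Without CFA3D replicate 1 it was 1.50 and passed, and it did not pass without CFA6D replicate 4, 5 or 6 (3.44 to 3.59). Per3-205 was lost without CFA3D replicate 1 or 2 or CFA6D replicate 4, and Clock-203 without CFA3D replicate 3 or CFA6D replicate 6. Causes were not tested.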

How the results depend on the processing

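With Benjamini-Hochberg adjustment in limma, 0 members, 0 of their transcripts and 0 other pathway genes passed in any comparison, against 0, 3 and 3 on CFA3D, 3, 4 and 3 on CFA6D and 3, 4 and 3 between the days at an unadjusted p under 0.05. When a change of 1 or more on the log2 scale was also asked, 1 member (Per1), 2 transcripts and 0 pathway genes passed on CFA6D, 1, 1 and 0 between the days, and 0 pathway genes on CFA3D. Quantile normalization (Nr1d2) or the highest transcript in place of the sum (Per1) gave 1 member on CFA3D. A pseudocount of 1 gave 5 pathway genes on CFA6D and 6 between the days, quantile normalization gave 5 on CFA6D, and no filter gave 7 transcripts on CFA6D.

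Leaving out 1 library at a time gave 0 to 1 members on CFA3D (1 being Cry2 without saline replicate 1, or Nr1d2 without saline replicate 3 or CFA3D replicate 2), 3 to 5 on CFA6D and 2 to 5 between the days, each with 5 without CFA3D replicate 3. It gave 2 transcripts (without CFA6D replicate 6) to 5 on CFA6D and 2 (without CFA6D replicate 4) to 6 between the days. Of the pathway genes, 1 (without saline replicate 2) to 3 passed on CFA3D, 2 to 5 (without CFA6D replicate 4) on CFA6D and 2 to 5 (without CFA3D replicate 1) between the days. Among the pairs, 0 to 1 passed an adjusted exact permutation p, which were Nr1d1 and Nr1d2 without saline replicate 1 and Per1 and Per2 without CFA3D replicate 2. The p of Per1, Cry2 and Clock on CFA6D stayed under 0.05 with every single library left out and under every other alternative, except for Clock with its highest transcript (-0.38).

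Signs turned only for differences that had not passed. On CFA3D, leaving out a library moved Per1 between -0.34 and 0.30, Per2 between -0.21 and 0.44, Per3 between -0.10 and 0.21, Cry1 between -0.039 and 0.22, Arntl between -0.36 and 0.23, Clock between -0.19 and 0.031, Nr1d1 between -0.21 and 0.12 and Dbp between -0.22 and 0.26. On CFA6D it moved Cry1 between -0.086 and 0.18 and Arntl between -0.54 and 0.04. Between the days it moved Per2 between -0.030 and 0.63, Cry1 between -0.13 and 0.075, Nr1d1 between -0.26 and 0.059 and Nr1d2 between -0.11 and 0.048. Without both saline replicate 3 and CFA6D replicate 6, an alternative added after seeing the data, the differences were -0.14 for Per2, -0.01 for Per3 and 0.23 for Arntl on CFA3D, and -0.03 for Cry1 and 0.11 for Arntl on CFA6D. With the highest transcript in place of the sum they were 4.03 for Per1 (Per1-203, listed at 0 in saline, so that the value depends on the pseudocount), -0.15 for Per3, 0.23 for Nr1d2 and 0.038 for Dbp on CFA3D, 0.062 for Arntl on CFA6D and 0.18 for Arntl between the days. Quantile normalization gave -0.0579 for Per3 on CFA3D. The causes were not tested.

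Same-numbered saline and CFA3D libraries had deviations correlated at 0.0873, -0.0802 and 0.03, and differently numbered ones at -0.11 to 0.0605. The numbers thus showed no pairing, but with 3 libraries in a group this check cannot exclude it. With the replicate block, 1 pathway gene passed on CFA3D in place of 3, 4 member transcripts in place of 3 and 0 members as without it. At these depths a transcript listed at 0 can be present below 1 read pair.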
